A study of Mus musculus with 61 samples.

Results

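The zona pellucida genes Zp1, Zp2 and Zp3 are described here across single cells of the mouse ovary. They were taken by name, and all 3 have a row among the 23927 gene rows of the deposited table. Their levels are given in each of 61 cells, together with their ratios to one another. The cells came from wild-type CD-1 mice, an outbred stock, on postnatal day 5, taken 6 hours after treatment by intraperitoneal injection. There were 16 control oocytes and 16 control granulosa cells from mice given solvent, and 16 oocytes and 13 granulosa cells from mice given doxorubicin (DOXO), a DNA-damaging anti-cancer drug. The dose is written with a unit that is not a dose unit, so it is not given.

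The zona pellucida is the extracellular coat of the egg, and in the mouse it is built from the glycoproteins ZP1, ZP2 and ZP3. ZP2 and ZP3 form the filaments, ZP1 cross-links them, and ZP2 takes part in sperm binding and is cleaved after fertilisation. The genes are transcribed by oocytes, above all once these leave the primordial pool and grow, and granulosa cells are not known to make the coat in the mouse. FIGLA, a basic helix-loop-helix factor of oocytes, acts on their promoters through E-boxes together with an E-protein partner.

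In GENCODE M21 (GRCm38, the build that the submitters' notes call mm10), Zp1 (ENSMUSG00000024734.8) lies on the minus strand at chr19:10914287-10920632, and its longest transcript has 12 exons and 1963 bases. Zp2 (ENSMUSG00000030911.7) lies on the minus strand at chr7:120126772-120145291, with 16 exons and 2393 bases. Zp3 (ENSMUSG00000004948.12) lies on the plus strand at chr5:135980099-135988624, with 8 exons and 1323 bases. The number of other annotated genes that overlap each of them is 0. The upstream window of Zp3 is printed because the RefSeq promoter table holds 1 of the 3 genes. It covers the 250 bases before the RefSeq start (GRCm38.p6, chr5:135979855-135980104, plus strand), and capitals mark each match to the E-box CANNTG, which reads the same on both strands.
Zp3 upstream: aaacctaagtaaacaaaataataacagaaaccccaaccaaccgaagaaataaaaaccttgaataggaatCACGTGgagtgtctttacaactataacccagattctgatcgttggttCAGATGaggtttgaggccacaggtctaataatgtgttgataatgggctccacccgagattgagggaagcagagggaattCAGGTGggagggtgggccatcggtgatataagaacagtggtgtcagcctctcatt
The window holds 3 E-box matches, which begin 181, 134 and 55 bases before the start. At least 1 match to CANNTG stood in 66.2% of the 32851 promoter windows of the same length, so the motif alone is common. The match at 181 bases is the palindrome CACGTG, which 6.02% of the windows hold. TATAA, searched on both strands, was found at 160 and 29 bases before the start, overlapping none of the E-boxes, and 22.8% of the windows hold it.

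No animal is named for any cell, so each group counts as 1 sample, and no difference between groups was tested. Levels are counts per 1000000 of a library's gene counts (CPM), intervals are 95% intervals for counting error only, and PCR reads without molecular identifiers are not independent molecules. CPM is relative to each library's own total, so less zona RNA and more of other RNA cannot be told apart. Total counts per cell ranged from 6834594 to 31262609. Doxorubicin oocyte 4 has a column in the table, which was kept, although its reads were lost according to the series text. Marker lists for the labelled types were checked first. Between the control groups, 3590 of 12373 genes reaching 5 CPM were at least 2-fold higher in oocytes, and 3868 were at least 2-fold lower. For oocyte markers that reached 5 CPM, the zona genes left out, 18 of 18 were at least 2-fold higher. For granulosa markers, 19 of 19 were at least 2-fold lower. Stroma, endothelial and blood markers were also lower in control oocytes, in 8 of 8, 3 of 3 and 3 of 3 measured genes. Granulosa libraries nevertheless carried many oocyte transcripts: summed oocyte markers were above summed granulosa markers in 3 of 16 control and 8 of 13 doxorubicin libraries. Doxorubicin granulosa cell 15 had 34796 CPM of blood markers.

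Control oocytes held the zona transcripts at high levels. Zp2 was the most abundant member. It was at 8186 CPM over the group (8173 to 8199), and single cells ran from 4234 through a median of 7889 to 12492 CPM. Zp3 was at 3163 CPM (3155 to 3171), with a lowest cell of 1445, a median of 3288 and a highest cell of 5269 CPM. Zp1 was at 1716 CPM (1710 to 1722), with a lowest cell of 622, a median of 1738 and a highest cell of 2750 CPM. Every control oocyte thus held all 3 transcripts at 622 CPM or more. Together the genes took up 1.31% of all counts of the group. Per kilobase of longest transcript, Zp2 ranked 3 among 23355 genes with a matched length, at 3421 CPM per kilobase. Zp3 ranked 7 at 2391 CPM per kilobase, and Zp1 ranked 31 at 874 CPM per kilobase. The order Zp2, Zp3, Zp1 held in 16 of 16 control oocytes, both as counts and per length.

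The zona level differed more among control oocytes than that of most abundant genes. The SD of log2(CPM + 1) between control oocytes was 0.64 for Zp1, 0.48 for Zp2 and 0.60 for Zp3. Over the 239 genes with at least 500 CPM in the group and at least 5 reads in every cell, the median SD was 0.28. A lower SD than that of Zp1, Zp2 and Zp3 was found for 95.8%, 89.1% and 94.1% of those genes. The zona sum ran from 6384 CPM in control oocyte 10 to 19001 CPM in control oocyte 2. Control oocytes 3 and 8 were also low, at 7098 and 7176 CPM, and control oocyte 4 was high, at 18976 CPM. The granulosa marker sum of the low cells was 171, 217 and 56.3 CPM, against 23.6 and 96.8 CPM in the high cells. Their stroma marker sum was 42.8, 54.7 and 21.996 CPM, against 9.86 and 917 CPM in the high cells.

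**Figure D1:**
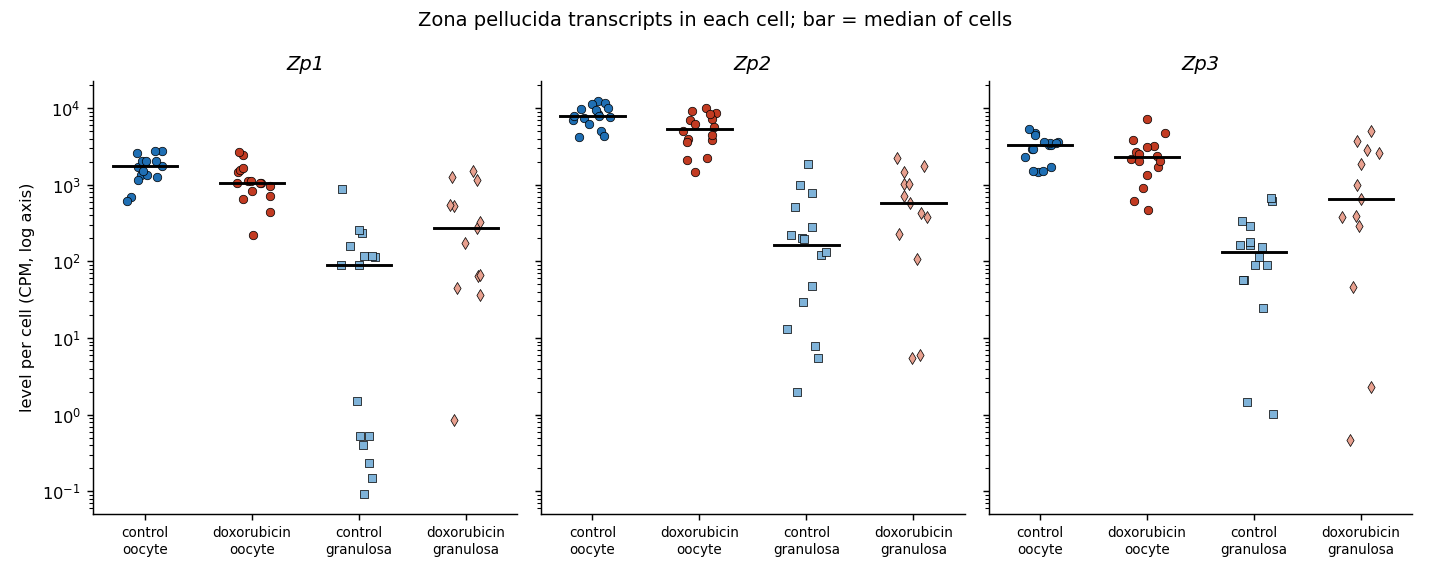
Level of Zp1, Zp2 and Zp3 in each cell (CPM, log axis) by group, with 1 point per cell and a bar at the median of the cells. The oocyte groups overlap for each gene, while granulosa libraries spread over several orders of magnitude, from 0.092 to 873 CPM for Zp1 in controls.

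After doxorubicin the oocytes had lower zona transcripts in the group sums. The difference was less than 2-fold for each gene, and the groups overlapped. Zp2 was at 5704 CPM (5693 to 5715) in doxorubicin oocytes, and the cells ran from 1457 through a median of 5320 to 9947 CPM. Its log2 ratio of doxorubicin over control was -0.52 (-0.52 to -0.52). Of the doxorubicin oocytes, 6 of 16 (cells 7, 8, 11, 12, 14 and 15) were below the lowest control oocyte, and 4 of 16 control oocytes were above the highest doxorubicin oocyte. Zp1 was at 1229 CPM (1224 to 1234), with a lowest cell of 224, a median of 1065 and a highest cell of 2693 CPM. Its log2 ratio was -0.48 (-0.49 to -0.47), and 2 of 16 doxorubicin oocytes (cells 11 and 14) were below the lowest control oocyte. Zp3 was at 2652 CPM (2644 to 2659), with a lowest cell of 463, a median of 2289 and a highest cell of 7155 CPM. Its log2 ratio was -0.25 (-0.26 to -0.25). For Zp3, 4 of 16 doxorubicin oocytes (cells 7, 11, 12 and 14) lay below all control oocytes and 1 of 16, cell 4, lay above them.

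The number of members at least 2-fold lower in doxorubicin oocytes was 0 of 3. Of the 11119 genes that reached 5 CPM in an oocyte group, 2.45% were at least 2-fold lower and 6.3% at least 2-fold higher. The median log2 ratio of these genes was 0.01, with quartiles of -0.24 and 0.25. A lower ratio than that of Zp2 was found for 9.55% of them, than that of Zp1 for 10.98% and than that of Zp3 for 23.4%. The value of Zp3 moved most with a single cell, to -0.46 when doxorubicin oocyte 4 was left out. It was -0.048 without the 3 doxorubicin oocytes lowest in Zp2 (cells 11, 12 and 14), a choice made after the values were seen, and by the same choice Zp1 was at -0.31 and Zp2 at -0.34.

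Those 3 low cells had zona sums of 2788, 2717 and 3602 CPM, against a group median of 8795 CPM. Their granulosa marker sums were 2814, 2081 and 31.9 CPM, against a median of 73.2 CPM. Doxorubicin oocyte 9, with the highest granulosa marker sum of 3235 CPM, had a zona sum of 8295 CPM. Among the 11 control and 12 doxorubicin oocytes under 200 CPM of granulosa markers, the log2 ratios were -0.46 for Zp1, -0.40 for Zp2 and -0.12 for Zp3, so Zp3 came closest to 0. In the group sums, 6 of 11 granulosa markers that reached 5 CPM were at least 2-fold higher after doxorubicin, against 6.3% of all genes. The median granulosa marker sum per cell was nonetheless lower, at 73.2 CPM against 89.3 CPM in controls, and cells 9, 11 and 12 held the highest sums. Of 6 endothelial markers only Pecam1 (1.85 and 8.55 CPM) and Tek (2.59 and 18.9 CPM) reached 5 CPM, both only after doxorubicin, and both were at least 2-fold higher. Egfl7 was lower, at 2.47 and 1.98 CPM, and Cdh5, Kdr and Emcn stayed under 1 CPM. The endothelial median sum was 26.7 CPM against 4.56 CPM in controls. Blood and immune markers had a median sum of 8.24 CPM against 1.79 CPM. Of 7 such genes only Hba-a1 (0.99 and 7.67 CPM) reached 5 CPM, and only after doxorubicin, and it was at least 2-fold higher. Stroma markers had a median sum of 37.6 CPM against 26.4 CPM, with 3 of 7 measured genes at least 2-fold higher. The part of these cell types in the zona values was not tested beyond the values given. Cdkn1a, a p53 target named here after its values were seen, had a Spearman's rho of 0.10 with the zona sum over the 16 doxorubicin oocytes. The 3 low cells had 133, 269 and 50.4 CPM of Cdkn1a, against a group median of 115 CPM.

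Cell-to-cell spread was wider after doxorubicin, both for the zona genes and for the median abundant gene. The SD of log2(CPM + 1) was 0.89 for Zp1, 0.82 for Zp2 and 1.04 for Zp3, and the median over the 241 genes with at least 500 CPM was 0.34. A lower SD was found for 95.9%, 94.2% and 96.7% of those genes, close to the shares in control oocytes for Zp1 and Zp3. The zona sum ran from 2717 CPM in doxorubicin oocyte 12 to 19579 CPM in doxorubicin oocyte 4. That is 7.21 times from lowest to highest, against 2.98 times in control oocytes. The highest cells of the groups were close to each other, and the lowest doxorubicin cells lay far below the lowest control cell.

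Within an oocyte the 3 genes had similar proportions in both groups. In control oocytes Zp2 made up 62.7% of the zona counts, Zp3 24.2% and Zp1 13.1%. In doxorubicin oocytes the shares were 59.5%, 27.7% and 12.8%. Over the cells, Zp2 ran from 55.8% to 69.9% of the zona counts in control oocytes and from 50.8% to 75.4% in doxorubicin oocytes. The ratio of Zp2 to Zp3 in control oocytes was 2.59 (a log2 of 1.37, interval 1.37 to 1.38), with single cells from 1.86 to 3.64. In doxorubicin oocytes it was 2.15 (log2 1.10, interval 1.10 to 1.11), with single cells from 1.39 to 4.54. The ratio of Zp1 to Zp3 was 0.54 (log2 -0.88) and 0.46 (log2 -1.11), and the ratio of Zp1 to Zp2 was 0.21 and 0.22. The SD of the cells' log2 ratio lay between 0.26 and 0.50 over the 3 ratios and both groups. For comparison, the SD of Gdf9 to Bmp15, both genes of secreted oocyte factors, was 1.88 in control and 2.35 in doxorubicin oocytes, though Bmp15 had far fewer counts. That of Gdf9 to Zp3 was 0.51 in control and 1.06 in doxorubicin oocytes, so in controls it came much closer to the zona pairs. Per length the ratio of Zp2 to Zp3 was 1.43 in control and 1.19 in doxorubicin oocytes, and in 2 of 16 doxorubicin oocytes the order of these genes was turned.

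Some doxorubicin oocytes had proportions outside those of control oocytes. Both the Zp1 to Zp3 and the Zp2 to Zp3 ratio lay within the range of control oocytes in 10 of 16 of them. Doxorubicin oocyte 4 had the lowest Zp2 to Zp3 log2 ratio, 0.48, and doxorubicin oocyte 11 the highest, 2.18. Doxorubicin oocyte 12 was the only oocyte of either group with more Zp1 than Zp3 counts, 7206 against 6808.

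**Figure D2:**
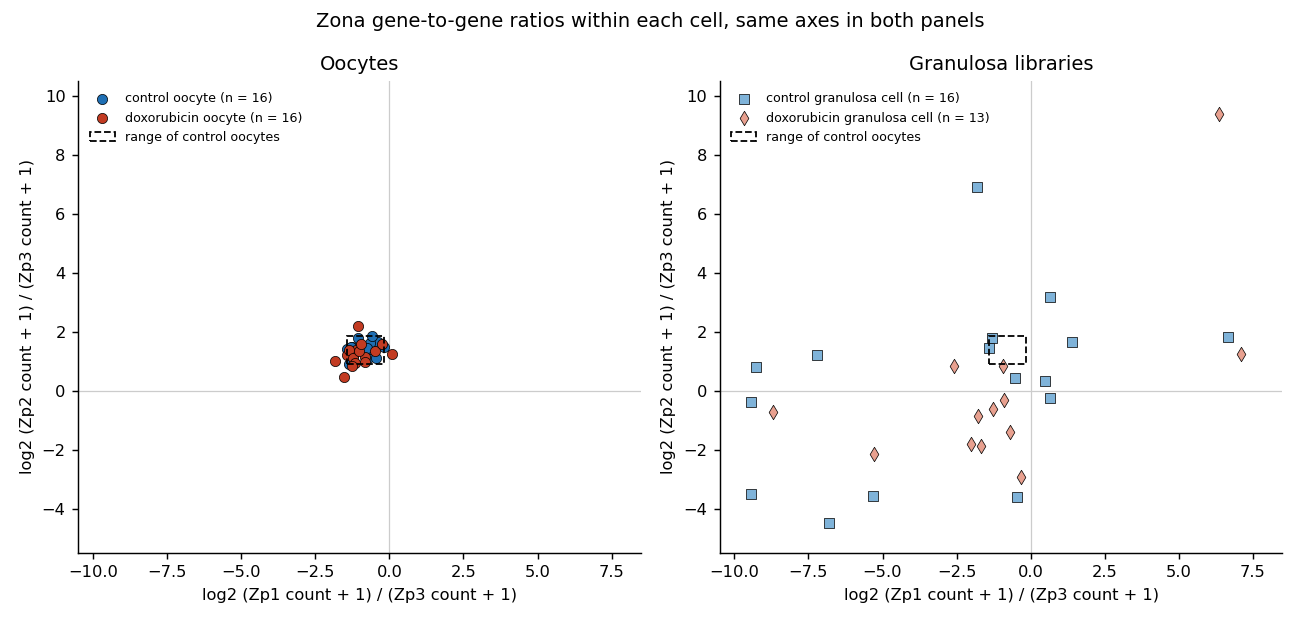
Log2 ratio of Zp2 to Zp3 against that of Zp1 to Zp3 in each cell (1 count added to each gene), oocytes on the left and granulosa libraries on the right, with the range of control oocytes as a dashed box. The oocytes form a compact cluster, and 2 of 16 control and 0 of 13 doxorubicin granulosa libraries lie in the box.

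The zona genes also varied together among oocytes. Over the 16 control oocytes Spearman's rho between log2(CPM + 1) values was 0.85 for Zp2 and Zp3 (Pearson's r 0.91), 0.76 for Zp1 and Zp3 (r 0.80) and 0.74 for Zp1 and Zp2 (r 0.78). Over the 16 doxorubicin oocytes the rho values were 0.96, 0.81 and 0.88 in the same order (r 0.94, 0.88 and 0.83). The zona sum varied with the summed oocyte markers, with a rho of 0.76 in control and 0.91 in doxorubicin oocytes. That marker sum does not stand for each marker. Its largest parts in control oocytes were Padi6 (15211 CPM), Nlrp14 (6543 CPM) and Nlrp5 (4684 CPM), of 38530 CPM. Of single markers, Gdf9 had a rho of 0.56 and 0.60 with the zona sum, and Bmp15 0.15 and -0.44. For Figla the values were -0.23 and -0.29. The zona sum also varied with the number of genes that had a count (rho 0.47 and 0.77) and less with the total count (0.14 and 0.47). These are descriptions over cells for which no animal is named, and all values of a cell share its library total.

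The genes most like the zona genes in pattern were sought over oocytes. Likeness was Spearman's rho with the mean log2(CPM + 1) of the 3 members, taken within each oocyte group of 16 and averaged. Over 4339 genes with at least 50 CPM in control oocytes and at least 5 reads in every oocyte, the median was -0.05. Nlrp14, an oocyte NLRP gene, came first at 0.82. It was followed by Glrx, a glutaredoxin, at 0.81, Tinf2, a subunit of the telomere-binding shelterin complex, at 0.77 and G6pdx, the entry enzyme of the pentose phosphate pathway, at 0.76. Padi6, a component of oocyte cytoplasmic lattices, was the fifth, at 0.75. The lowest values were those of Hmgb3, a chromatin protein (-0.73), Rnpc3, of the minor spliceosome (-0.68), and Gm15387 (-0.66). The ovastacin gene Astl stood at rank 20 with 0.68. Nlrp14 and Padi6 are also oocyte markers of the list used here. From the same list, Sohlh1 (-0.36), Figla (-0.26), Lhx8 (-0.18) and Kit (-0.14) had a likeness below 0. The other oocyte markers in the ranking were above 0.

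Regulators of zona transcription differed by less than 2-fold between oocyte groups. Of the 11 listed factors 0 were 2-fold lower and 0 were 2-fold higher, against 2.45% and 6.3% of all 11119 genes, so most genes also stayed under 2-fold. Of these 11 factors 7 had a ratio below 0, and their median log2 ratio was -0.04. Figla itself was at 457 CPM in controls and 487 CPM after doxorubicin, a log2 ratio of 0.09 (0.08 to 0.11). Its rho with the zona sum was -0.23 over control and -0.29 over doxorubicin oocytes. The E-protein gene Tcf12 was at 56.9 and 70.7 CPM, a log2 ratio of 0.31, while Tcf3 (-0.06) and Tcf4 (-0.12) lay closer to 0. The ratio of Tcf3 was 0.02 without control oocyte 12, and that of Tcf4 was -0.02 without control oocyte 9. Nobox, a homeobox factor of early oocytes, went with the zona genes in direction, at 2206 and 1624 CPM, a log2 ratio of -0.44 (-0.45 to -0.43). Over leaving out 1 cell it stayed between -0.49 and -0.40. Tbpl2, an oocyte relative of the TATA-binding protein, was at 82.4 and 58.6 CPM, a log2 ratio of -0.49. Foxo3, which restrains follicle activation, was at -0.25, and at -0.02 once control oocyte 16 was left out. Lhx8 (-0.04), Sohlh1 (0.05), Sohlh2 (-0.03) and Taf4b (0.03) had ratios near 0, and those of Lhx8, Sohlh2 and Taf4b changed sign when 1 cell was left out.

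Genes for zona modification and the egg surface had, over 11 genes, a median log2 ratio of -0.23 between the oocyte groups, and 8 of the genes were below 0. Astl, the protease that cleaves ZP2 after fertilisation, was at 552 and 468 CPM, a ratio of -0.24, or -0.44 when doxorubicin oocyte 4 was left out. Furin, of the proprotein convertase family, was at 42.0 and 32.04 CPM, a ratio of -0.39. C1galt1, which makes core O-glycans, was the only gene of the list past 2-fold. It was at 13.6 and 6.45 CPM, a ratio of -1.07 (-1.17 to -0.97), or -0.96 when control oocyte 16 was left out, and 7 of 16 doxorubicin oocytes were below the lowest control oocyte. Mgat1, which starts complex N-glycans, had a ratio of -0.36, but 0.05 without control oocyte 16. The sperm-receptor gene Izumo1r was at 137 and 98.2 CPM, a ratio of -0.48, and Cd9, needed for gamete fusion, was at 339 and 397 CPM, a ratio of 0.23. The chaperone genes of the endoplasmic reticulum showed no common direction, with ratios of 0.19 for Hspa5, 0.09 for Canx, -0.09 for Pdia3, -0.13 for P4hb and -0.23 for Calr.

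Other genes whose products carry a ZP domain did not exceed 34.8 CPM in either oocyte group. Of 10 with a row, 5 reached 5 CPM in either oocyte group, with a median log2 ratio of 0.04. Both counts and the median include the pseudogene row Zp4-ps, which is on the list by name only. Umod, the uromodulin gene, was at 11.6 CPM in both groups, and its log2 ratio of 0.00 was -0.54 without doxorubicin oocyte 16. Zpld1 was at 11.98 and 12.3 CPM, a ratio of 0.04 that ran from -0.36 to 0.28 over leaving out 1 cell. Umodl1 was at 14.8 and 34.8 CPM, a ratio of 1.23, or 0.60 when doxorubicin oocyte 4 was left out, and its cell medians were 14.2 and 16.6 CPM. Tgfbr3, a TGF-beta co-receptor, was at 0.29, and at 0.60 once control oocyte 16 was left out. The row Zp4-ps, the mouse pseudogene of a further zona gene, was at 5.51 and 2.72 CPM, a ratio of -1.02, or -0.89 when control oocyte 16 was left out. A pseudogene can share reads with related genes, so its value is uncertain.

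**Figure D3:**
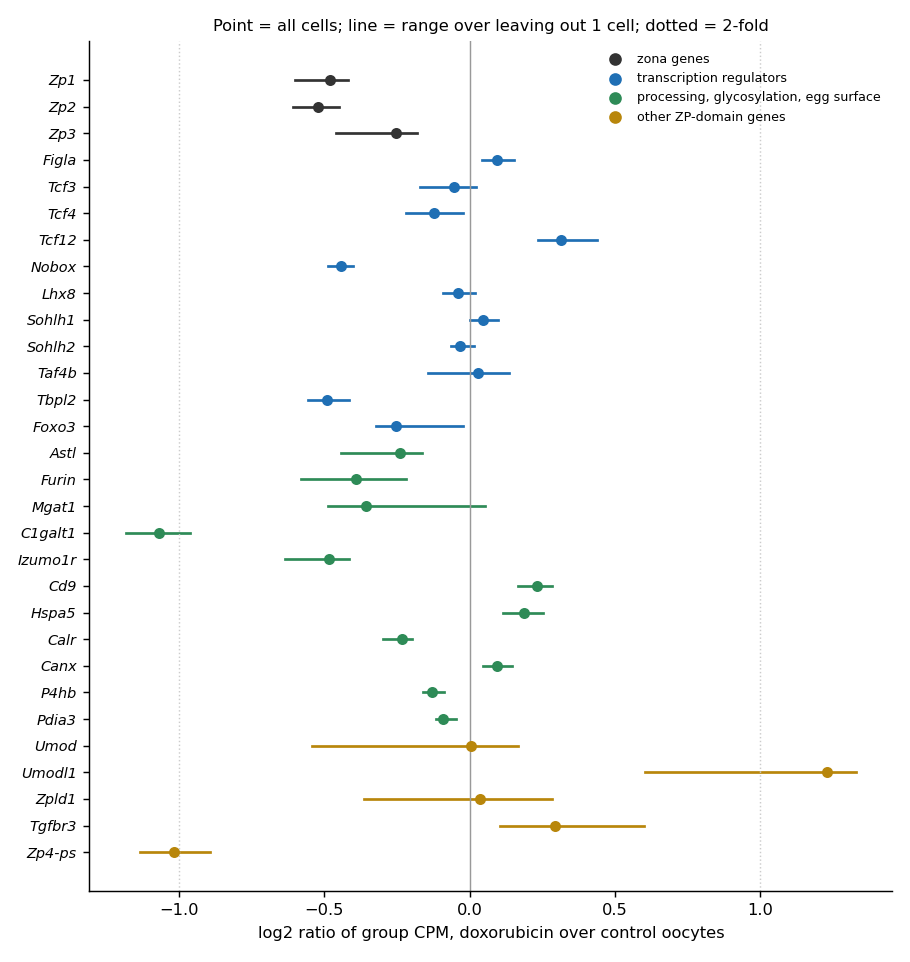
Log2 ratio of doxorubicin over control oocytes for the 3 zona genes and the listed genes with at least 5 CPM (points), with the range over leaving out 1 cell (lines). The whole line lies below 0 for Zp1, Zp2 and Zp3. The same holds for Nobox, Tbpl2, Tcf4, Foxo3, Astl, Furin, C1galt1, Izumo1r, Calr, P4hb, Pdia3 and Zp4-ps. The lines of Figla, Tcf12, Sohlh1, Cd9, Hspa5, Canx, Umodl1 and Tgfbr3 lie above 0, and the other lines cross it.

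Control granulosa libraries held far less zona RNA. Zp2 was at 296 CPM (293 to 298) over the group, with a lowest library of 1.98, a median of 163 and a highest of 1878 CPM. Its log2 ratio of control oocytes over control granulosa cells was 4.79 (4.78 to 4.804), and every control oocyte was above every control granulosa library. Zp3 was at 178 CPM (176 to 180), from 1.01 through a median of 134 to 681 CPM, and its log2 ratio was 4.15 (4.13 to 4.16), and again the groups did not overlap. Zp1 was at 118 CPM (116 to 120), from 0.092 through a median of 89.0 to 873 CPM, and its log2 ratio was 3.86 (3.84 to 3.88). For Zp1, 14 of 16 control oocytes were above all control granulosa libraries. The ratio of Zp1 was 4.68 without control granulosa cell 8, which supplied 46.7% of the Zp1 counts of its group. All 3 members were at least 2-fold higher in oocytes, as were 29% of the 12373 genes that reached 5 CPM in one of the groups. Ranges that did not overlap were found for 3.25% of genes with oocytes higher and for 0.453% with oocytes lower.

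Every granulosa library held some zona reads. At least 5 reads were found for Zp2 and Zp3 in 16 of 16 control libraries and for Zp1 in 13 of 16, or 81.25%. After each library was thinned to 1000000 counts the numbers were 15, 14 and 9 of 16. In doxorubicin libraries all 3 genes had at least 5 reads in 13 of 13, and after thinning in 12 of 13 for Zp1 and Zp2 and 11 of 13 for Zp3.

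Doxorubicin granulosa libraries had higher zona levels than control granulosa libraries. Zp3 was at 1380 CPM (1374 to 1386), from 0.47 through a median of 655 to 5098 CPM, and its log2 ratio of doxorubicin over control was 2.95 (2.93 to 2.97). For Zp3, 6 of 13 doxorubicin libraries were above the highest control library and 1 of 13 was below the lowest. Zp1 was at 458 CPM (454 to 461), from 0.84 through a median of 271 to 1521 CPM, with a ratio of 1.96 (1.93 to 1.98), which was 2.77 without control granulosa cell 8. Zp2 was at 755 CPM (751 to 760), from 5.44 through a median of 582 to 2233 CPM, with a ratio of 1.35 (1.34 to 1.37). For Zp1 3 of 13 and for Zp2 1 of 13 doxorubicin libraries were above the highest control library, so the groups overlapped for all 3 genes. Members at least 2-fold higher numbered 3 of 3, against 20.6% of the 12194 genes that reached 5 CPM in one of the groups.

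Most other oocyte markers were higher in the same libraries. Without the zona genes, 17 of 17 markers that reached 5 CPM were at least 2-fold higher after doxorubicin, with a median log2 ratio of 2.31. The share over all genes was 20.6%. Lhx8 (1.82 and 0.80 CPM) and Ddx4 (1.93 and 0.66 CPM) stayed under 5 CPM and were lower after doxorubicin. Doxorubicin oocytes were at least 2-fold above doxorubicin granulosa libraries in 11 of 19 markers, against 27.6% of all 12428 genes. They were at least 2-fold below these libraries in 5 of 19 markers, near the share of 28.2% over all genes. Those 5 were Gdf9, Zar1, H1f8, Khdc3 and Oosp1, so the marker sum differed in make-up between the cell types. In control granulosa libraries the summed oocyte markers ran from 356 through a median of 1574 to 15229 CPM. In doxorubicin granulosa libraries they ran from 429 through 10735 to 40912 CPM. Granulosa markers had a median log2 ratio of -0.55, and their sum had medians of 5287 and 2784 CPM. Divided by the summed oocyte markers, the zona sum was 0.34 for control and 0.30 for doxorubicin oocytes, and it was 0.23 for control and 0.21 for doxorubicin granulosa libraries. On that scale, chosen after the data were seen, the log2 ratios of doxorubicin over control granulosa libraries were -0.32 for Zp1, -0.92 for Zp2 and 0.68 for Zp3, so the signs of Zp1 and Zp2 turned. In oocytes the same scale gave -0.22, -0.26 and 0.0058. There Padi6, Nlrp14 and Nlrp5 were the largest parts of the marker sum in both groups, so the scale follows mainly these genes. Only 13 control and 5 doxorubicin granulosa libraries had more granulosa than oocyte markers, and among these the ratios were 1.69, 0.55 and 0.88. Zp2 and Zp3 were then less than 2-fold higher. The part of oocyte transcripts in the zona values of granulosa libraries was not tested beyond these values.

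**Figure D4:**
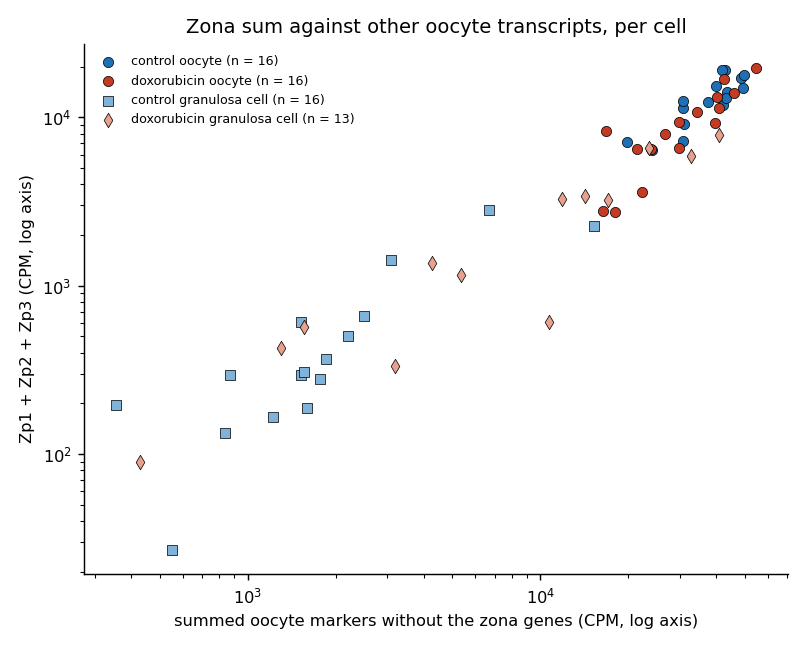
Zona sum (CPM, log axis) against the summed oocyte markers without the zona genes (CPM, log axis), 1 point per cell by group. Doxorubicin granulosa libraries reach up to the oocytes on both axes, and the cells of both types lie along 1 band.

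After doxorubicin the 2 cell types were closer in zona level. Oocytes were above granulosa libraries by a log2 ratio of 2.92 for Zp2, 1.42 for Zp1 and 0.94 for Zp3. Against the 5 doxorubicin libraries with more granulosa than oocyte markers, the ratios were 4.93, 2.80 and 3.68, while against the 13 such control libraries control oocytes were above by 6.00, 4.98 and 4.81. Of 12428 genes, 27.6% were at least 2-fold higher in oocytes in this comparison, and Zp3, just under 2-fold, was not among them. The ratio of Zp3 was past 2-fold without doxorubicin granulosa cell 1 (1.25) and as a difference of the cells' medians (1.80). Ranges did not overlap, with oocytes higher, for 1.54% of genes and for 0 of the 3 zona genes, and 14 of 16 doxorubicin oocytes were above all doxorubicin granulosa libraries in Zp2. Doxorubicin granulosa cell 1 had 7798 CPM of zona transcripts, more than 6 of the 16 doxorubicin oocytes. Across the 4 groups the order of levels for each gene was control oocytes, doxorubicin oocytes, doxorubicin granulosa and control granulosa libraries. Each neighbouring pair in that order overlapped in its cells.

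The proportions of the zona genes in granulosa libraries were unlike those in oocytes. In the group sums, control granulosa libraries had 49.9% Zp2, 30.1% Zp3 and 19.9% Zp1. Doxorubicin granulosa libraries had 29.1% Zp2, 53.2% Zp3 and 17.6% Zp1, so that Zp3 and not Zp2 was the largest part. The ratio of Zp2 to Zp3 was 1.66 (log2 0.73) and 0.55 (log2 -0.87), and per length it was 0.92 and 0.30, against 1.43 in control oocytes. The ratio of Zp1 to Zp3 was 0.66 (log2 -0.60) in control libraries, with a log2 of -1.15 without control granulosa cell 8, and 0.33 (log2 -1.59) in doxorubicin libraries. Of the 13 doxorubicin granulosa libraries 11 had a lower Zp2 to Zp3 ratio than any control oocyte, as did 9 of 16 control granulosa libraries.

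In some granulosa libraries 1 zona gene made up more than 80% of the zona counts, a limit set after the values were seen. This was so in 5 of 16 control and 3 of 13 doxorubicin granulosa libraries, and in 0 of 16 oocytes of either group. Control granulosa cell 16 had 1693 counts of Zp2 beside 3 of Zp1 and 13 of Zp3. Control granulosa cell 12 had 1417 counts of Zp1 beside 48 of Zp2 and 13 of Zp3. Control granulosa cell 7 had 2371 counts of Zp3 beside 20 of Zp1 and 104 of Zp2. Each of the 3 genes was thus the main one in some library. After doxorubicin, cell 14 had 3988 counts of Zp1 beside 67 of Zp2 and 28 of Zp3, and cell 16 had 4031 counts of Zp2 beside 486 of Zp1 and 5 of Zp3. For Zp3 the only such library was cell 12, with 24928 counts beside 633 of Zp1 and 5590 of Zp2. Its Zp3 share of 80.02% was barely past the limit, and its Zp2 share was 17.9%. The SD of the log2 ratio of Zp1 to Zp3 between libraries was 4.68 in control and 4.11 in doxorubicin granulosa libraries, against 0.40 and 0.49 in oocytes. For Zp2 to Zp3 it was 2.93 and 3.10, against 0.26 and 0.38. Spearman's rho for Zp2 and Zp3 was 0.44 over 16 control and 0.83 over 13 doxorubicin granulosa libraries. The zona sum nonetheless varied with the summed oocyte markers, with a rho of 0.83 in control and 0.94 in doxorubicin granulosa libraries.

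The oocyte markers other than the zona genes did not share 1 direction between the oocyte groups. Of 18 measured genes 12 had a ratio below 0 and 6 above 0, and the median log2 ratio was -0.18. The number at least 2-fold lower was 1 and at least 2-fold higher 0, against 2.45% and 6.3% of all genes. Gdf9 and Bmp15, which encode growth factors that oocytes secrete, are given with their values seen beforehand. Gdf9 was at 964 and 564 CPM, a log2 ratio of -0.77, and Bmp15, the gene past 2-fold, was at 36.6 and 13.8 CPM, a ratio of -1.41. Npm2, a histone chaperone of the egg, was at 333 and 461 CPM, a ratio of 0.47. It was 0.24 without doxorubicin oocyte 4, and the cell medians of Npm2 were 324 and 362 CPM. In granulosa libraries Gdf9, Astl and Figla were higher after doxorubicin, beside the zona genes. Gdf9 was at 68.1 CPM in control and 1817 CPM in doxorubicin granulosa libraries. Astl was at 14.6 CPM in control and 253 CPM in doxorubicin granulosa libraries, and Figla was at 49.2 and 191 CPM.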

How the data were processed

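Per the labels' protocols, mRNA of single lysed cells was reverse transcribed and amplified with the SMART-seq v4 kit. The column names of all cells end in the same code, which does not tell whether cells were collected or amplified in batches. The unit of the table the authors deposited is the estimated count, since 34.05% of its nonzero values are not whole. The submitters' processing notes name Partek, Bowtie2, HISAT2, DESeq2 and mm10, without roles. The annotation and filters are not given in the sources used here. Counts were rounded, and 22 rows with date-like names (0.144% of counts) stayed in the totals. The 61 columns were matched to samples by name.

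A group's level is its summed count over its cells per 1000000 of its counts in all gene rows. Ratios carry exact conditional binomial (Clopper-Pearson) intervals, and levels carry exact Poisson intervals. A group under 3 counts is set to 3. Calls are at least 2-fold among genes that reach 5 CPM in one of the groups compared, and no p-value was computed. Alternatives were scaling of the group sums by edgeR TMM or by DESeq2 size factors, other ways to combine cells, subsets of cells and leaving out each cell. The calculation was tested on simulated data. The closest pair of cells of a group, control oocytes 2 and 6, had a chi-square over genes of 56.7 for each degree of freedom. Gene lengths are longest GENCODE M21 transcripts, matched by symbol. The named genes are the 3 members, genes of 3 written lists and the 5 highest and 3 lowest in likeness. Cdkn1a and the marker genes named outside these lists, among them Gdf9, Bmp15 and Npm2, were added after their values were seen. Members and lists were chosen with earlier results of these data known. Tools were Python 3.11.15, numpy 2.4.6, pandas 2.3.3, scipy 1.17.1, matplotlib 3.10.9, R 4.3.3, edgeR 4.0.16 and DESeq2 1.42.0.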

Additional observations from a re-analysis of the deposited data

Results flagged for a closer look

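All 3 zona genes were lower after doxorubicin in oocytes and higher in granulosa libraries, and no single cell that was left out turned a sign. The ratio in granulosa libraries exceeded that in oocytes by 2.44 for Zp1, by 1.875 for Zp2 and by 3.21 for Zp3. Each group is 1 sample, so this difference was not tested. Divided by the summed oocyte markers, the ratios of Zp1 and Zp2 were below 0 in both cell types. Those of Zp3 were above 0, at 0.0058 in oocytes and 0.68 in granulosa libraries.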

How the results depend on the processing

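Each group is 1 sample, so alternatives show how values move and give no test. No paired analysis was possible because replicate numbers only name cells and no test was run. Ratios below are in log2, in the order Zp1, Zp2 and Zp3.

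For doxorubicin over control in oocytes, the mean of the cells' CPM gave -0.53, -0.56 and -0.27, the difference of the cells' medians -0.71, -0.57 and -0.52, DESeq2 size factors -0.49, -0.53 and -0.26, and edgeR TMM -0.53 for Zp2 and -0.26 for Zp3. Oocytes under 200 CPM of granulosa markers gave -0.46, -0.40 and -0.12. Chosen after seeing the data, leaving out doxorubicin oocytes 11, 12 and 14 gave -0.31, -0.34 and -0.048, and division by the summed oocyte markers gave -0.22, -0.26 and, with the sign turned, 0.0058. Leaving out each cell gave -0.60 to -0.42, -0.61 to -0.45 and -0.46 to -0.18.

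For doxorubicin over control in granulosa libraries, the mean of the cells' CPM gave 1.84 for Zp1 and 1.17 for Zp2, the medians 1.598, 1.85 and 2.30, DESeq2 size factors 1.99, 1.39 and 2.99, and edgeR TMM 1.99, 1.39 and 2.99. Libraries with more granulosa than oocyte markers gave 1.69, 0.55 and 0.88. Division by the summed oocyte markers turned the signs of Zp1 (-0.32) and Zp2 (-0.92) and gave 0.68 for Zp3. The cause was not tested. Leaving out each library gave 1.61 to 2.77, 1.07 to 1.70 and 2.64 to 3.21.

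For control oocytes over control granulosa libraries, the mean gave 3.75, 4.59 and 4.04, the medians 4.27, 5.61 and 4.62, DESeq2 size factors 3.95, 4.88 and 4.24, edgeR TMM 3.91, 4.84 and 4.19, and libraries with more granulosa than oocyte markers 4.98, 6.00 and 4.81. Leaving out each library gave 3.75 to 4.68, 4.68 to 5.13 and 4.04 to 4.41. For oocytes over granulosa libraries after doxorubicin, with alternatives chosen after seeing the data, the mean gave 1.38, 2.87 and 0.82, the medians 1.97, 3.19 and 1.80, and libraries with more granulosa than oocyte markers 2.80, 4.93 and 3.68. Leaving out each library gave 1.30 to 1.77, 2.79 to 3.21 and 0.74 to 1.25.

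The median of the cells' own ratio of Zp1 to Zp3 was, for control and doxorubicin oocytes and then control and doxorubicin granulosa libraries, -0.75, -1.09, -1.37 and -1.27, and per kilobase the group ratio was -1.45, -1.68, -1.17 and -2.16. For Zp2 to Zp3 the medians were 1.45, 1.24, 0.61 and -0.74, and per kilobase 0.52, 0.25, -0.13, with the sign turned, and -1.72. Leaving out each library gave, for Zp1 to Zp3, -0.92 to -0.82, -1.16 to -1.02, -1.15 to -0.40 and -1.80 to -1.41, and for Zp2 to Zp3, 1.35 to 1.41, 1.08 to 1.22, 0.52 to 0.92 and -1.08 to -0.66. With no minimum CPM, 19.7% of genes were at least 2-fold higher and 14.3% at least 2-fold lower in doxorubicin oocytes.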
